A study of Mus musculus with 12 samples.

Results

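The 55 genes described here encode proteins that build the small ribosomal subunit. Of these, 46 belong to the small subunit processome and 9 act later, on the pre-40S particle. They were taken by name from a list of such factors, with no threshold on measured values, although the list was drawn up with earlier results of these data known. They are 55 of 56941 genes in the count table. All 55 were found once in the table and all were among the 16794 genes with enough counts to be tested. RNA came from CH12F3-2A, an established mouse B cell lymphoma line that bears IgM and is used as a culture model of switching to IgA. The cells had been electroporated with pX459, a plasmid that carries Cas9, a puromycin resistance gene and a guide, and were held in puromycin for 72 h. The guide was directed at Nop16 (sgNop16) or was non-targeting (sgCtr). Cells were then left unstimulated or given CIT, which is anti-CD40L at 1 μg/ml, mouse IL-4 at 20 ng/ml and human TGF-β at 1 ng/ml, for 24 h. The 4 groups (sgCtr_no, sgCtr_CIT, sgNop16_no and sgNop16_CIT) had 3 libraries each, given as biological replicates. All groups share the line, the plasmid and the selection, and no group carried a guide against another site of Nop16. A further limit is that libraries of bulk RNA cannot tell fewer cells with a transcript from less of it per cell.

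The small subunit processome is a very large particle that forms on the nascent ribosomal RNA precursor in the nucleolus. It folds the RNA, directs its chemical modification and makes the cuts that free the precursor of 18S rRNA. Its first layers are the UTP-A and UTP-B complexes and the U3 small nucleolar ribonucleoprotein, whose RNA pairs with the precursor. The pre-40S factors escort the released particle to the cytoplasm, where the last cut completes 18S rRNA. Lymphocytes need new ribosomes to grow and divide, and MYC is a known activator of many ribosome biogenesis genes. NOP16 is itself a nucleolar protein, assigned to assembly of the large subunit.

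Total counts per library lay between 38866418 and 48615177, and levels below are counts per 1000000 (CPM) after scaling between libraries. Nop16 (ENSMUSG00000025869), the targeted gene, stood at 106.3 ± 2.35 CPM (SD, n = 3) in sgCtr_no and 85.7 ± 3.1 in sgNop16_no. With CIT it stood at 77.1 ± 3.46 and 65.7 ± 0.93 CPM. Its guide differences on the log2 scale were -0.31 without CIT (adjusted p = 0.000563) and -0.23 with it (adjusted p = 0.00455), so most of the mRNA remained. Where the guide cuts is not stated in the labels, and mRNA can persist from a cut allele, so these levels do not measure editing. All 7 B cell markers looked up were above 1 CPM, with summed levels of 4010 to 4140 CPM in sgCtr and 3710 to 3830 CPM in sgNop16 libraries. Summed levels of 6 T cell markers were at most 2.6 CPM and of 5 fibroblast markers at most 5.2 CPM. Lyz2, Col1a2 and Dcn were at 0 in every library. Some of these sums moved with CIT. The 5 macrophage markers summed to 7.7 to 8.9 CPM in sgCtr_no and 11.9 to 15.1 in sgCtr_CIT, and to 9.44 to 10.9 in sgNop16_no and 15.7 to 18.2 in sgNop16_CIT. Over all libraries Csf1r ranged from 0.691 to 8.59 CPM and Cd68 from 6.46 to 9.39. Fibroblast markers summed to 1.41 to 2.89 CPM without and 3.22 to 5.2 with CIT, and T cell markers to 1.61 to 2.6 without and 0.526 to 0.871 with it. The part of these shifts in the results below was not tested.

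In unstimulated sgCtr cells the 55 genes ranged in mean level from 26.2 CPM (Utp23) to 309 CPM (Wdr43), with a median of 105 CPM. Per kilobase of annotated exon the span was 16.8-fold, from 5.22 ± 0.38 CPM per kb for Riok3 to 87.9 ± 0.91 for Utp3, around a median of 26.0. Utp3, which binds within the U3 and MPP10 region of the particle, thus had the highest level of the list. The next levels per kb were 68.3 ± 1.9 for Pno1, a partner of the nuclease that makes the last cut, and 64.7 ± 0.32 for Wdr43, a UTP-A subunit. Within the other roles the highest levels per kb were those of Ngdn (50.8 ± 1.9), Fcf1 (46.3 ± 2.5), a nuclease, and Utp6 (29.2 ± 0.72), a UTP-B subunit. Many neighbours in the order lay within their spread, such as Ngdn and Noc4l (49.4 ± 0.35) or Utp6 and Ltv1 (29.2 ± 0.63). Exon lengths are those of all annotated transcripts together, so a gene with long rare transcripts, as may apply to Riok1 (5.87 ± 0.13), reads low on this scale.

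Promoter sequences are given as a description, and were looked up with the response to CIT, described below, already known. RefSeq promoters of build GRCm38.p6, 250 bases before to 50 after each start, were at hand for 45 of the 55 genes, as 46 sequences. The 6 letters CACGTG, the E-box that MYC with its partner MAX and other factors of that family can bind, read the same on both strands. They stood in 12 of the 46 (26.1%), against 7.15% of all 32851 promoters in the table and 9.66% of the 13085 promoters of tested genes. In the 250 bases before the start alone the shares were 13.0% (6 of 46), 6.02% and 8.03%. The 95% intervals (Wilson) for the list were 15.6% to 40.3% over the 300 bases and 6.12% to 25.7% before the start. The looser CANNTG, which contains CACGTG, was in 58.7% of the members' promoters, 72.3% of all and 64.6% of those of tested genes. CCGGAAG, the core letters of ETS family sites searched on both strands and chosen after the data were seen, was in 43.5%, 8.86% and 17.5%. It never overlapped CACGTG, and 6 promoters of the list held both. Of the 12 CACGTG matches in the list, 6 began after the start site, 16 to 38 bases into the transcript, against 361 of 2589 (13.9%) over all promoters. Such a match is a description of letters and not a measured binding site. The first 4 sequences below are, of the 6 with CACGTG after the start, those of the genes with the largest falls in sgCtr cells. Pno1 (log2 change -0.22) and Utp20 (-0.33), which also have it there, are not printed. The last 2 sequences are of genes that were not called after CIT and lack these letters. All were picked with these changes known, so the printed set does not show how the letters relate to the falls. Capitals mark CACGTG, and each is written 5′ to 3′ on the strand of its gene. They lie at chr17:71615965-71616264 (Wdr43, plus strand), chr11:74897830-74898129 (Tsr1, plus), chr10:13193088-13193387 (Ltv1, minus), chr8:106893390-106893689 (Utp4, plus), chr11:83941840-83942139 (Ddx52, plus) and chr13:38036739-38037038 (Riok1, plus).
Wdr43: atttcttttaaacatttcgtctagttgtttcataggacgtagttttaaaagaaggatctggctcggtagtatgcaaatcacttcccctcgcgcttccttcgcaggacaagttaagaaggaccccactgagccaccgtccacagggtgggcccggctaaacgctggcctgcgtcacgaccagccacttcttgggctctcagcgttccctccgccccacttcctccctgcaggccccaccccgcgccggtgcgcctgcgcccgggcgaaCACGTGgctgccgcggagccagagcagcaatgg
Tsr1: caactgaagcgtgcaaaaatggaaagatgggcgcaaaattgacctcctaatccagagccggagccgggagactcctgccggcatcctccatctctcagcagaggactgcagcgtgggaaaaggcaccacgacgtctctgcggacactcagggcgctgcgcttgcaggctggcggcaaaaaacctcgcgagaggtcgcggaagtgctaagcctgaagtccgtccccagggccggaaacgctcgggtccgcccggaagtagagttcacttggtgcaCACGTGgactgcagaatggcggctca
Ltv1: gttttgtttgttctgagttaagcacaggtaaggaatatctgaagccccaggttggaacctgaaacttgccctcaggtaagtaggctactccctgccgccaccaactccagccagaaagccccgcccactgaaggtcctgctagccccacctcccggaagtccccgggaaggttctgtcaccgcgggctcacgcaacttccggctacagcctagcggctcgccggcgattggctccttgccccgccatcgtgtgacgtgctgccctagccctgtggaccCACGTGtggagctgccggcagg
Utp4: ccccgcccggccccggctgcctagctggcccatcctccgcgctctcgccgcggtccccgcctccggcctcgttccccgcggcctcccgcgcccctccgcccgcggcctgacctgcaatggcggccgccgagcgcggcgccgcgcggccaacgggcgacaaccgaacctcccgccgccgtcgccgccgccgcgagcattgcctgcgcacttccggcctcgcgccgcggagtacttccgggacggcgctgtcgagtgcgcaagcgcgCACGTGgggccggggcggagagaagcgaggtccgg
Ddx52: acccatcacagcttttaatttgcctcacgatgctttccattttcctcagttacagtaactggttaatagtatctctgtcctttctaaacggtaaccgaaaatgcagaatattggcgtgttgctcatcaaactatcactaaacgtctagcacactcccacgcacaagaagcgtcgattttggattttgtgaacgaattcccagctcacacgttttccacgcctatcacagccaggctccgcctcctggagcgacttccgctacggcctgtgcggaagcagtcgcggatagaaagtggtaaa
Riok1: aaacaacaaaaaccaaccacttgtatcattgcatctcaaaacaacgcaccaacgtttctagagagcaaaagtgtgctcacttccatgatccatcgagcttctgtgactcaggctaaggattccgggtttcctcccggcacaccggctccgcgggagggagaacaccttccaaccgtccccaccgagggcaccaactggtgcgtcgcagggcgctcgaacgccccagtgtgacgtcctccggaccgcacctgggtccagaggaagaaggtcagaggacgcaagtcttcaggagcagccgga
In the first 4 the letters begin 18, 25, 29 and 16 bases into the transcript. Among the 45 genes with a promoter, the 12 with CACGTG were all called lower after CIT in sgCtr cells, with log2 changes of -0.62 to -0.22 and a median of -0.36. Of the 33 without it 28 were called lower, with changes of -0.57 to -0.02 over all 33 and a median of -0.31. These ranges overlap, and Bysl, Nol10 and Nob1, with some of the largest falls of the list, lack these letters in this window. Over all tested genes 20.9% were called lower, a share that was not split by these letters. The part of the letters in the falls was not tested.

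The first question is what CIT does to these genes in cells with the control guide. CIT lowered most of them, modestly and together: 47 of 55 fell, and 0 rose. Across all tested genes 20.9% were called lower and 20.4% higher. Among the 7093 genes at or above the lowest mean level of the list, 25.5 CPM, 37.9% were called lower. The log2 changes of the 55 ran from -0.62 to 0.09 with a median of -0.31, where the median over all tested genes was 0.02 and over the 7093 was -0.05. A single gene, Wdr43, fell by as much as 1.5-fold. For 48 genes every sgCtr_CIT library lay below every sgCtr_no library, as was the case for 25.0% of all tested genes. DESeq2 called the same numbers, 47 lower and 0 higher, as did an unadjusted p under 0.05, and no setting tried changed the count of 47.

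**Figure D1:**
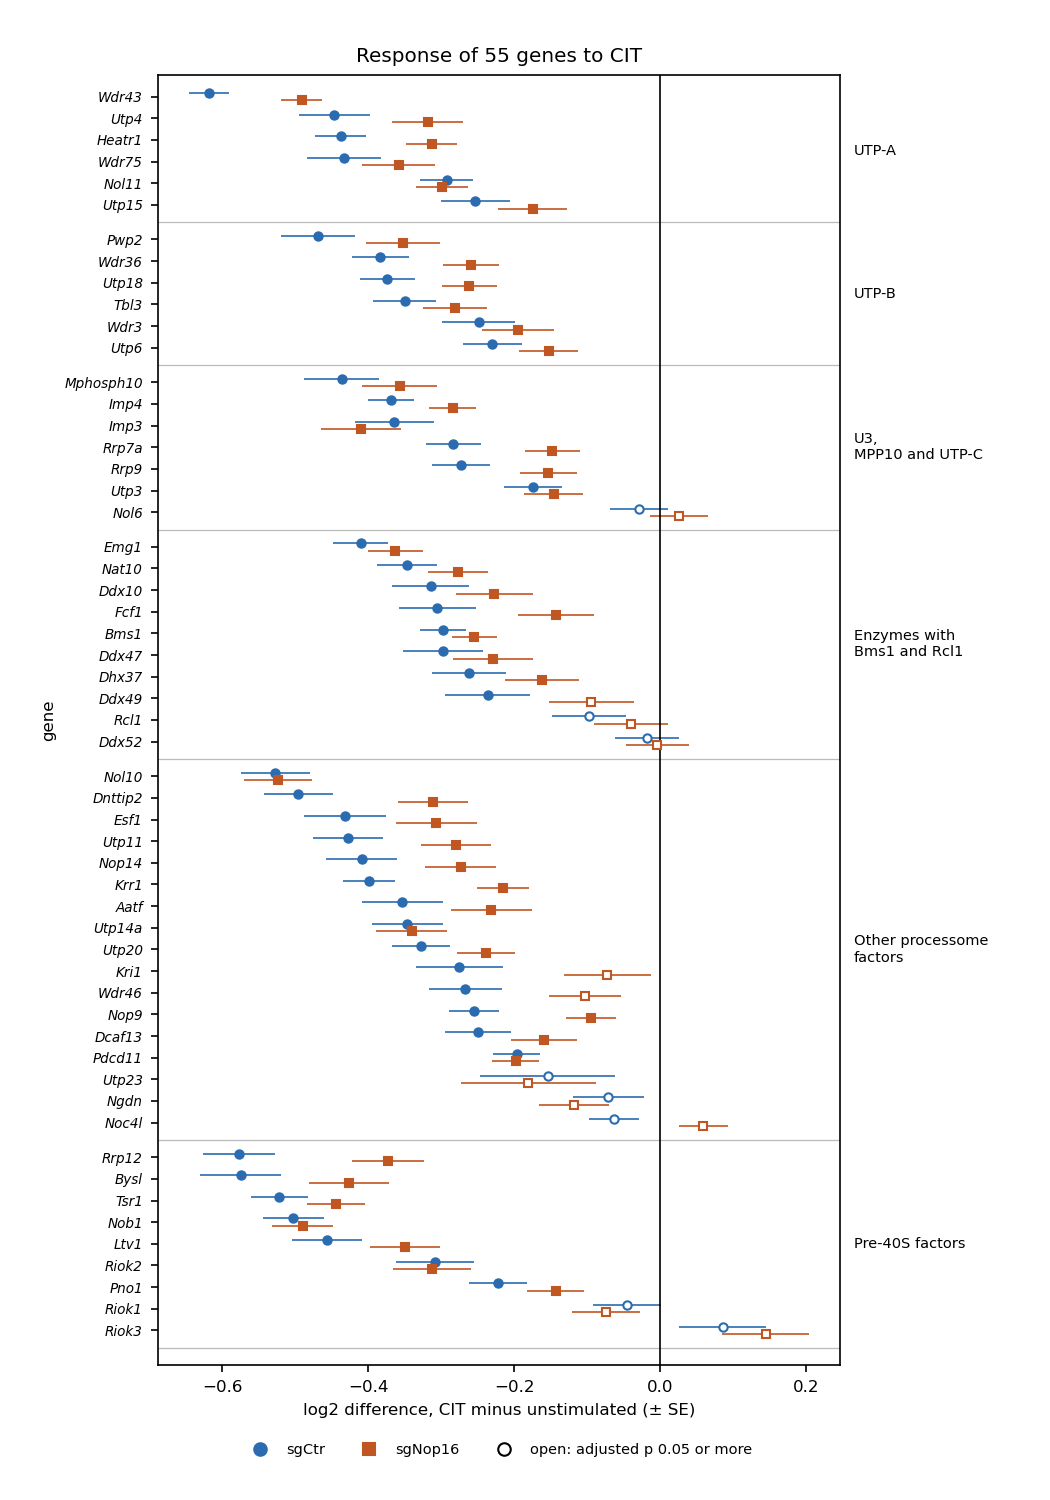
Log2 difference between CIT and unstimulated libraries (horizontal axis, ± SE) for each of the 55 genes, grouped by role, in sgCtr (circles) and sgNop16 cells (squares). Filled symbols are called at an adjusted p under 0.05. All filled symbols lie left of 0, and the 8 genes with 2 open symbols are spread over 4 of the 6 roles.

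UTP-A, which binds first to the leading spacer of the precursor and is also tied to transcription of ribosomal DNA, fell in all 6 members (median log2 change -0.44). Wdr43 (ENSMUSG00000041057) had the largest fall of all 55. Its libraries read 309.3, 310.2 and 307.2 CPM without CIT and 204.5, 198.6 and 200.5 with it, well apart and with little spread in either group. The log2 change was -0.62 ± 0.03 (SE, adjusted p = 2.58e-11), or 34.9% less. Utp4 (-0.45 ± 0.05), Heatr1 (-0.44 ± 0.04) and Wdr75 (-0.43 ± 0.05) followed, and Nol11 (-0.29 ± 0.04) and Utp15 (-0.25 ± 0.05) fell least. Heatr1, a large repeat protein also known from nucleolar transcription, went from 246.4, 248.7 and 231.8 CPM to 184.4, 178.9 and 173.4.

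UTP-B, a complex built largely of WD-repeat proteins, fell in all 6 members as well (median -0.36). Pwp2 led with -0.47 ± 0.05 and Utp6 had the smallest change, -0.23 ± 0.04. The libraries of Utp6 still did not overlap, with 132.3, 135.2 and 128.7 CPM without and 115.6, 111.7 and 110.5 with CIT.

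Among the U3, MPP10 and UTP-C proteins 6 of 7 fell (median -0.28). All 3 proteins of the MPP10 complex were among them: Mphosph10 changed by -0.44 ± 0.05, Imp4 by -0.37 ± 0.03 and Imp3 by -0.36 ± 0.05. Rrp9, the protein specific to the U3 particle, changed by -0.27 ± 0.04 and Rrp7a, of UTP-C, by -0.28 ± 0.04. Utp3, highest per kb, had the smallest fall of these, from 144.9, 142.6 and 142.2 CPM to 131.9, 119.6 and 129.4 (-0.17 ± 0.04, adjusted p = 0.00207). Nol6, a UTP-C protein, was the member not called.

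Of the 10 enzymes with Bms1 and its partner Rcl1, 8 fell (median -0.30). Emg1, which methylates a modified uridine of 18S rRNA, fell most, by -0.41 ± 0.04 on the log2 scale. Nat10, the cytidine acetyltransferase of 18S rRNA, changed by -0.35 ± 0.04 and the nuclease Fcf1 by -0.31 ± 0.05. Bms1, a GTPase, went from 199.5, 191.4 and 191.3 CPM to 160.3, 160.2 and 153.2 (-0.30 ± 0.03). The helicase genes Ddx10 (-0.31 ± 0.05), Ddx47 (-0.30 ± 0.05), Dhx37 (-0.26 ± 0.05) and Ddx49 (-0.24 ± 0.06) also fell. Rcl1 and Ddx52 did not pass the test.

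Among the 17 other processome factors 14 fell (median -0.33). Nol10 (ENSMUSG00000061458), of the complex it forms with AATF and NGDN, had the largest change. It read 81.47, 75.47 and 76.2 CPM without and 56.11, 52.32 and 53.31 with CIT, groups that stood far apart (-0.53 ± 0.05, adjusted p = 1.21e-07). Its partner Aatf changed by -0.35 ± 0.06, while the third partner Ngdn was not called. Dnttip2 (-0.50 ± 0.05), Esf1 (-0.43 ± 0.06), Utp11 (-0.43 ± 0.05), Nop14 (-0.41 ± 0.05) and Krr1 (-0.40 ± 0.04) were next. Pdcd11, an RNA-binding protein that serves both subunits, had the smallest called change of the role, -0.20 ± 0.03.

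The pre-40S factors had the lowest median of the 6 roles (-0.46), with 7 of 9 lower. Rrp12 (ENSMUSG00000035049), a repeat protein involved in export of the particle, read 118.1, 109.3 and 111.0 CPM without CIT and 75.24, 76.05 and 75.5 with it (-0.58 ± 0.05, adjusted p = 8.22e-08). Bysl (ENSMUSG00000023988), which joins the particle in the nucleolus, went from 108.0, 95.01 and 111.5 CPM to 69.46, 72.89 and 68.8 (-0.57 ± 0.06, adjusted p = 3.18e-07). Tsr1 (ENSMUSG00000038335), a GTPase-like protein of the cytoplasmic particle, went from 127.3, 129.1 and 130.4 CPM to 89.81, 92.83 and 86.86 (-0.52 ± 0.04, adjusted p = 1.71e-08). In each of these the lowest unstimulated library was above the highest stimulated one by more than the spread within either group. Nob1 (ENSMUSG00000003848), the nuclease of the last cut, read 94.19, 94.13 and 99.01 CPM and then 65.73, 67.51 and 69.57 (-0.50 ± 0.04, adjusted p = 5.38e-08). Ltv1 changed by -0.46 ± 0.05, the kinase gene Riok2 by -0.31 ± 0.05 and Pno1 by -0.22 ± 0.04. The related kinase genes Riok1 and Riok3 were not called.

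The same question was asked in cells with the Nop16 guide. Here 44 of 55 genes fell and 0 rose in edgeR, where 18.2% of all tested genes were called lower, 18.9% higher, and 32.4% of the 7093 genes at the level of the list were lower. At an unadjusted p under 0.05 there were 45 lower and 1 higher, and DESeq2 gave 45 and 1, the gene higher by DESeq2 being Riok3. The log2 changes ran from -0.52 to 0.14 with a median of -0.24, against 0.01 over all tested genes and -0.03 over the 7093. In 47 genes the sgNop16_CIT libraries were all below the sgNop16_no libraries, against 22.7% of tested genes. All 44 were also lower in sgCtr cells.

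Nol10 had the largest fall with this guide, from 85.66, 84.94 and 79.58 CPM to 58.48, 57.5 and 58.06 (-0.52 ± 0.05, adjusted p = 1.52e-07). Wdr43 went from 307.0, 322.3 and 315.8 CPM to 218.6, 226.6 and 227.2 (-0.49 ± 0.03, adjusted p = 5.25e-10). Nob1 went from 97.51, 103.2 and 99.69 CPM to 68.84, 73.0 and 72.08 (-0.49 ± 0.04, adjusted p = 8.63e-08). All 3 had wide gaps between the groups. Tsr1 read 137.2, 129.0 and 140.2 CPM without and 97.9, 102.5 and 98.39 with CIT (-0.44 ± 0.04, adjusted p = 1.41e-07). Bysl read 110.8, 107.7 and 109.5 CPM and then 81.89, 85.36 and 76.82 (-0.43 ± 0.06, adjusted p = 1.12e-05). Imp3, an RNA-binding member of the MPP10 complex, read 52.33, 53.69 and 55.05 CPM and then 42.72, 38.82 and 39.72 (-0.41 ± 0.05, adjusted p = 1.41e-05). The groups of these genes did not overlap either.

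By role, all 6 UTP-A (median -0.32) and all 6 UTP-B members (-0.26) fell in sgNop16 cells. So did 6 of 7 U3, MPP10 and UTP-C proteins (-0.15), 7 of 10 enzymes (-0.19), 12 of 17 other factors (-0.22) and 7 of 9 pre-40S factors (-0.35). The calls of Fcf1 (-0.14 ± 0.05, adjusted p = 0.0438) and Nop9 (-0.09 ± 0.03, adjusted p = 0.0422), an RNA-binding repeat protein, were near the threshold and each was lost under 8 of the other settings. That of Dhx37 (-0.16 ± 0.05, adjusted p = 0.019) was lost without sgNop16_CIT library 2 or 3, and that of Dcaf13 (-0.16 ± 0.05, adjusted p = 0.0107) without sgNop16_CIT library 3.

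**Figure D2:**
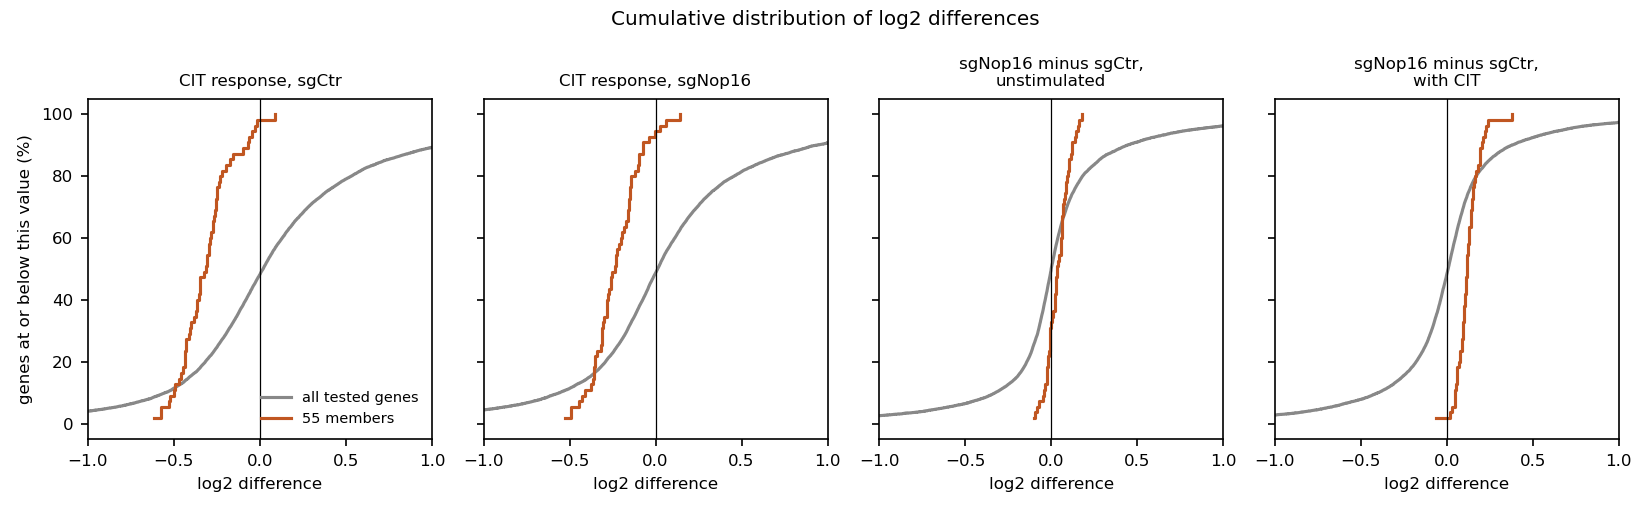
Cumulative share of genes (vertical axis, %) at or below each log2 difference (horizontal axis, shown from -1 to 1) for the 55 genes and for all tested genes, in 4 comparisons. The 55 genes lie left of all genes in both CIT responses (medians -0.31 and -0.24) and slightly right of them between the guides with CIT (median 0.12), over a much narrower range.

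A minority of the list did not pass the test after CIT. Of the 55, 8 were called with neither guide, and 3 (Ddx49, Kri1 and Wdr46) with sgCtr but not with sgNop16. For Ddx49 the sgNop16 change was -0.09 ± 0.06 (adjusted p = 0.241), for Kri1 -0.07 ± 0.06 (adjusted p = 0.398) and for Wdr46 -0.10 ± 0.05 (adjusted p = 0.126). The difference of their responses between the guides did not pass either (adjusted p = 0.515, 0.294 and 0.315), so these 3 are not shown to respond differently. The libraries of Ddx49 with and without CIT did not overlap with either guide, at 63.94, 66.24 and 72.02 CPM and then 62.69, 63.2 and 63.49 in sgNop16 cells.

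Of the 8 called with neither guide, Riok3 was the gene with estimates above 0 in both. It read 52.72, 58.03 and 60.83 CPM in sgCtr_no, 57.16, 61.54 and 63.48 in sgCtr_CIT, 55.8, 55.25 and 60.45 in sgNop16_no and 63.38, 61.29 and 64.96 in sgNop16_CIT. The sgCtr libraries overlapped (0.09 ± 0.06, adjusted p = 0.285) and the sgNop16 libraries did not, with those after CIT higher (0.14 ± 0.06, adjusted p = 0.0696). The latter was called under 5 other settings. RIOK3 is the atypical kinase of the family found on cytoplasmic pre-40S particles. Its relative Riok1, a kinase of the last maturation step, changed by -0.05 ± 0.05 with sgCtr (adjusted p = 0.5) and -0.07 ± 0.05 with sgNop16 (adjusted p = 0.256).

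Nol6 read 164.6, 159.5 and 163.7 CPM in sgCtr_no and 166.9, 161.5 and 149.7 in sgCtr_CIT, which overlap (-0.03 ± 0.04, adjusted p = 0.631). Its sgNop16 change was 0.03 ± 0.04 (adjusted p = 0.678). Ddx52, a DEAD-box helicase gene, changed by -0.02 ± 0.04 with sgCtr (adjusted p = 0.794) and -0.0035 ± 0.04 with sgNop16 (adjusted p = 0.962). The signs of the Nol6 and Ddx52 estimates turned under some other settings. Rcl1, the partner that BMS1 brings to the particle, changed by -0.10 ± 0.05 (adjusted p = 0.145) and -0.04 ± 0.05 (adjusted p = 0.604). Noc4l, the partner of NOP14, changed by -0.06 ± 0.03 (adjusted p = 0.16) and 0.06 ± 0.03 (adjusted p = 0.2).

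Ngdn changed by -0.07 ± 0.05 with sgCtr (adjusted p = 0.278) and -0.12 ± 0.05 with sgNop16 (adjusted p = 0.069). Utp23, a protein with a nuclease-like fold, was the least abundant of the 55 and had the widest error, with -0.15 ± 0.09 (adjusted p = 0.21) and -0.18 ± 0.09 (adjusted p = 0.149). For Utp23 a change of the size seen in the rest of the list was within the error.

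Summed over the 55 genes, the level was 6182 ± 33.9 CPM (SD, n = 3) in sgCtr_no and 4932 ± 41.7 in sgCtr_CIT. It was 6352 ± 58.6 in sgNop16_no and 5384 ± 70.5 in sgNop16_CIT. By library the sums were 6208, 6144 and 6195, then 4968, 4940 and 4886, then 6314, 6324 and 6420, then 5325, 5462 and 5366 CPM. No library of one group overlapped another group. The sum is led by abundant genes, and no p is given for it because the members were chosen with results known.

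**Figure D3:**
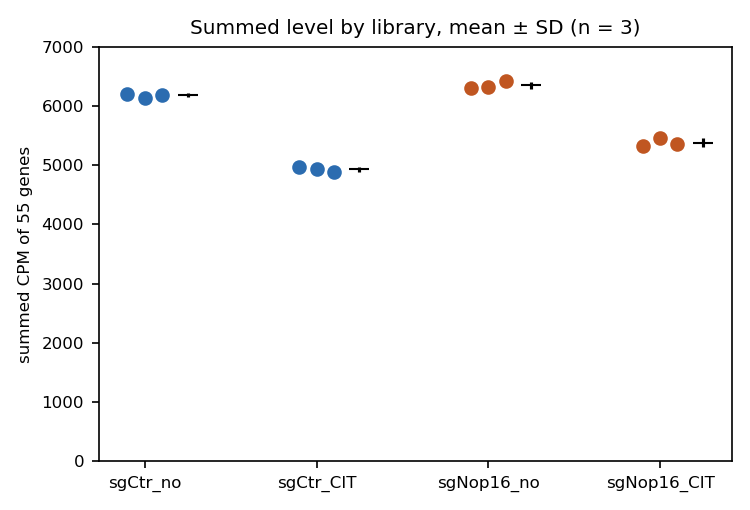
Summed CPM of the 55 genes (vertical axis, from 0) in each of the 12 libraries (points) with the mean ± SD of each group. Both CIT groups lie below both unstimulated groups, and sgNop16_CIT (5325 to 5462) lies above sgCtr_CIT (4886 to 4968).

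The next question is whether the Nop16 guide changes these genes. After CIT the list was somewhat higher in sgNop16 cells: 19 of 55 were called higher and 0 lower, where 3.39% of all tested genes were higher, 2.77% lower, and 6.89% of the 7093 genes at the level of the list were higher. At an unadjusted p under 0.05 there were 35 higher and 0 lower, and DESeq2 called 24 and 0. The shares of all tested genes by these rules were not counted. The median log2 difference was 0.12, against 0.01 over all tested genes and also over the 7093. Of the 55 estimates 54 were above 0, as were 51.8% over all tested genes. The exception was Utp3 (-0.06 ± 0.04, adjusted p = 0.448). In 41 genes every sgNop16_CIT library was above every sgCtr_CIT library, as in 13.2% of tested genes. The count of 19 depended on each library. It was 11, 10 and 9 without sgCtr_CIT library 1, 2 or 3. Without sgNop16_CIT library 1, 2 or 3 it was 9, 7 and 12. It was 12 with only the stimulated groups in the fit or with no filter on low counts. Shares of all tested genes in these fits are not given, so the drop is not shown to be particular to the list. This comparison shares its sgCtr_CIT libraries with the CIT response of sgCtr cells, so noise in them moves the estimates of both in opposite directions. Values of sgCtr_CIT that are low by error would deepen the fall and raise the guide difference.

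**Figure D4:**
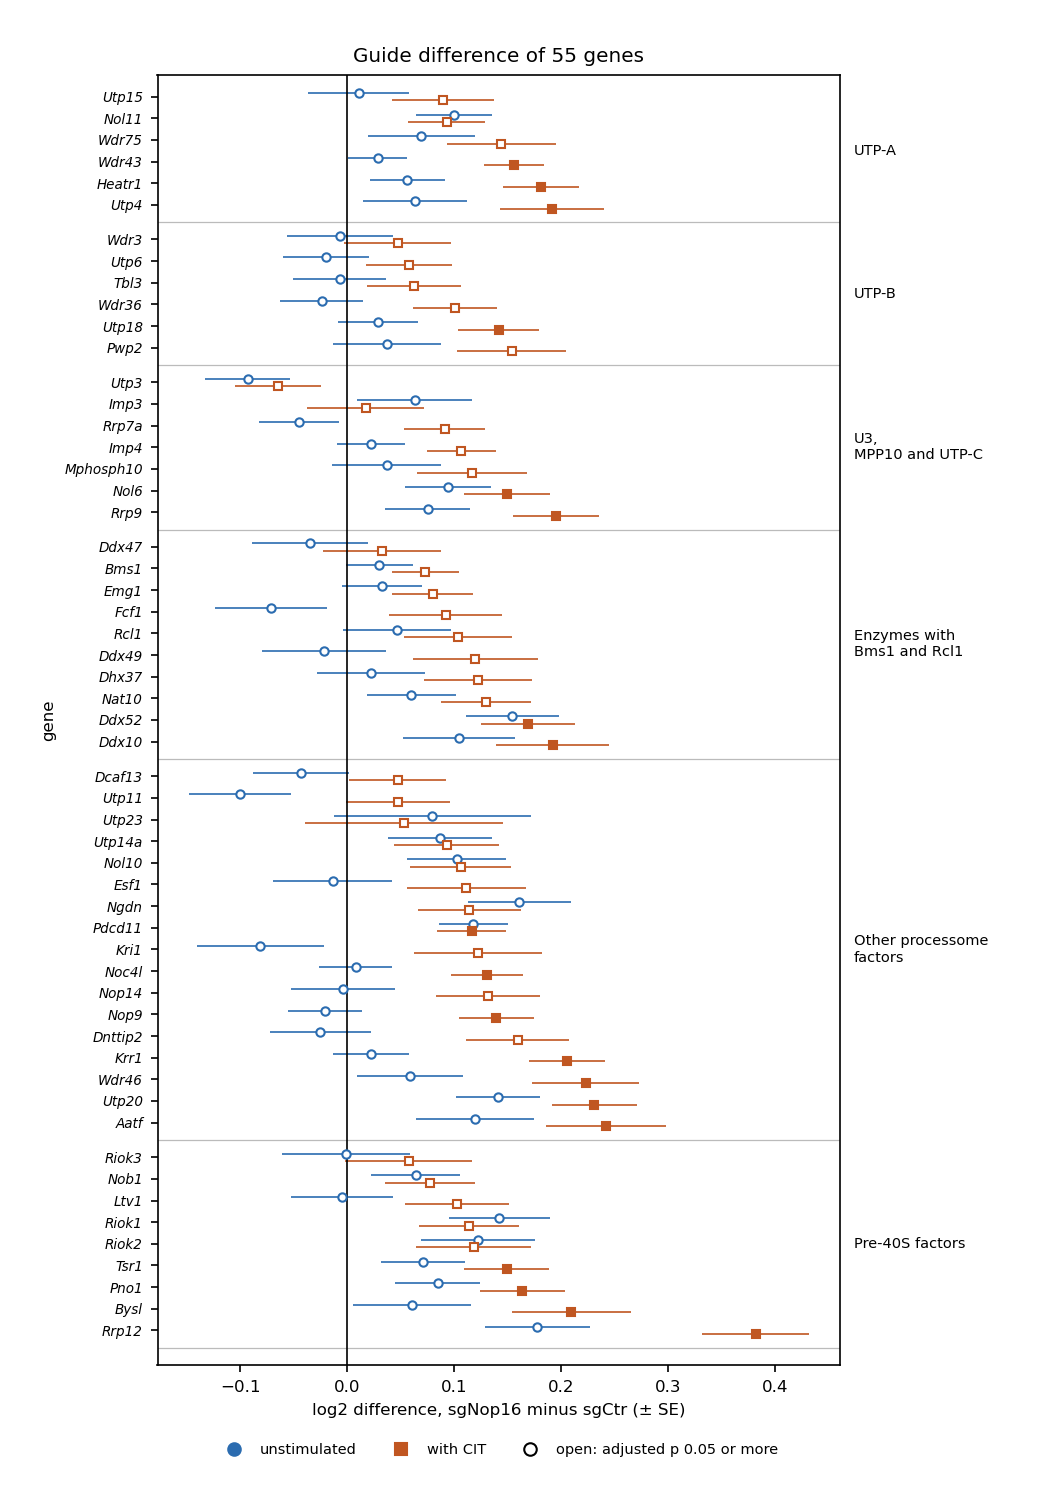
Log2 difference between sgNop16 and sgCtr libraries (horizontal axis, ± SE) for each of the 55 genes, grouped by role, without CIT (circles) and with CIT (squares). Filled symbols are called at an adjusted p under 0.05. All circles are open, and 19 squares are filled, with Rrp12 farthest right at 0.38.

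Rrp12 had the largest guide difference after CIT. It read 75.24, 76.05 and 75.5 CPM in sgCtr_CIT and 89.91, 103.6 and 101.8 in sgNop16_CIT, higher in every library (0.38 ± 0.05, adjusted p = 0.000252), or 30.3% more. Aatf read 40.65, 39.41 and 36.35 CPM against 44.71, 47.46 and 45.43 (0.24 ± 0.06, adjusted p = 0.0166). AATF is also known as a partner of RNA polymerase II and in the response to stress. Its groups were close but did not overlap, and the call was lost without sgCtr_CIT library 3 or sgNop16_CIT library 2.

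Utp20, a very long repeat protein, read 132.0, 134.0 and 125.8 CPM in sgCtr_CIT against 149.4, 158.7 and 151.5 in sgNop16_CIT (0.23 ± 0.04, adjusted p = 0.00221). Wdr46, a WD-repeat scaffold of the processome, read 79.59, 82.78 and 79.52 CPM against 95.63, 98.14 and 88.49 (0.22 ± 0.05, adjusted p = 0.0138). Bysl read 69.46, 72.89 and 68.8 CPM against 81.89, 85.36 and 76.82 (0.21 ± 0.06, adjusted p = 0.0359). In all 3 the sgNop16 libraries stood above the sgCtr libraries. Krr1, a KH-domain protein, read 92.6, 93.75 and 97.11 CPM against 107.2, 112.3 and 107.2 (0.21 ± 0.04, adjusted p = 0.00234). The call of Wdr46 was lost under 4 and that of Bysl under 7 of the other settings.

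By role the calls with CIT were 3 of 6 for UTP-A (Utp4, Heatr1 and Wdr43), 1 of 6 for UTP-B (Utp18) and 2 of 7 for the U3, MPP10 and UTP-C proteins (Rrp9 and Nol6). They were 2 of 10 for the enzymes (Ddx10 and Ddx52), 7 of 17 for the other factors (Aatf, Utp20, Wdr46, Krr1, Nop9, Noc4l and Pdcd11) and 4 of 9 for the pre-40S factors (Rrp12, Bysl, Pno1 and Tsr1). Heatr1, Krr1, Rrp12, Rrp9, Utp20 and Wdr43 were called under every setting run. The other 13 lost the call under at least 1 setting. Among them, Ddx52, Noc4l and Nol6 had not been called after CIT in sgCtr cells. Nol6 read 182.5, 172.8 and 174.9 CPM in sgNop16_CIT against 166.9, 161.5 and 149.7 in sgCtr_CIT (0.15 ± 0.04, adjusted p = 0.0387).

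Myc (ENSMUSG00000022346) moved alongside the list. It stood at 453.9, 449.5 and 462.3 CPM in sgCtr_no, 204.4, 198.3 and 189.6 in sgCtr_CIT, 463.4, 466.9 and 458.5 in sgNop16_no and 239.4, 251.2 and 244.1 in sgNop16_CIT. It fell by 1.21 on the log2 scale in sgCtr and by 0.92 in sgNop16 cells. After CIT it was higher with the Nop16 guide by 0.31 (adjusted p = 1.3e-05), and its response differed between the guides by 0.29 (adjusted p = 0.00183). The part of Myc in the values of the list was not tested.

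**Figure D5:**
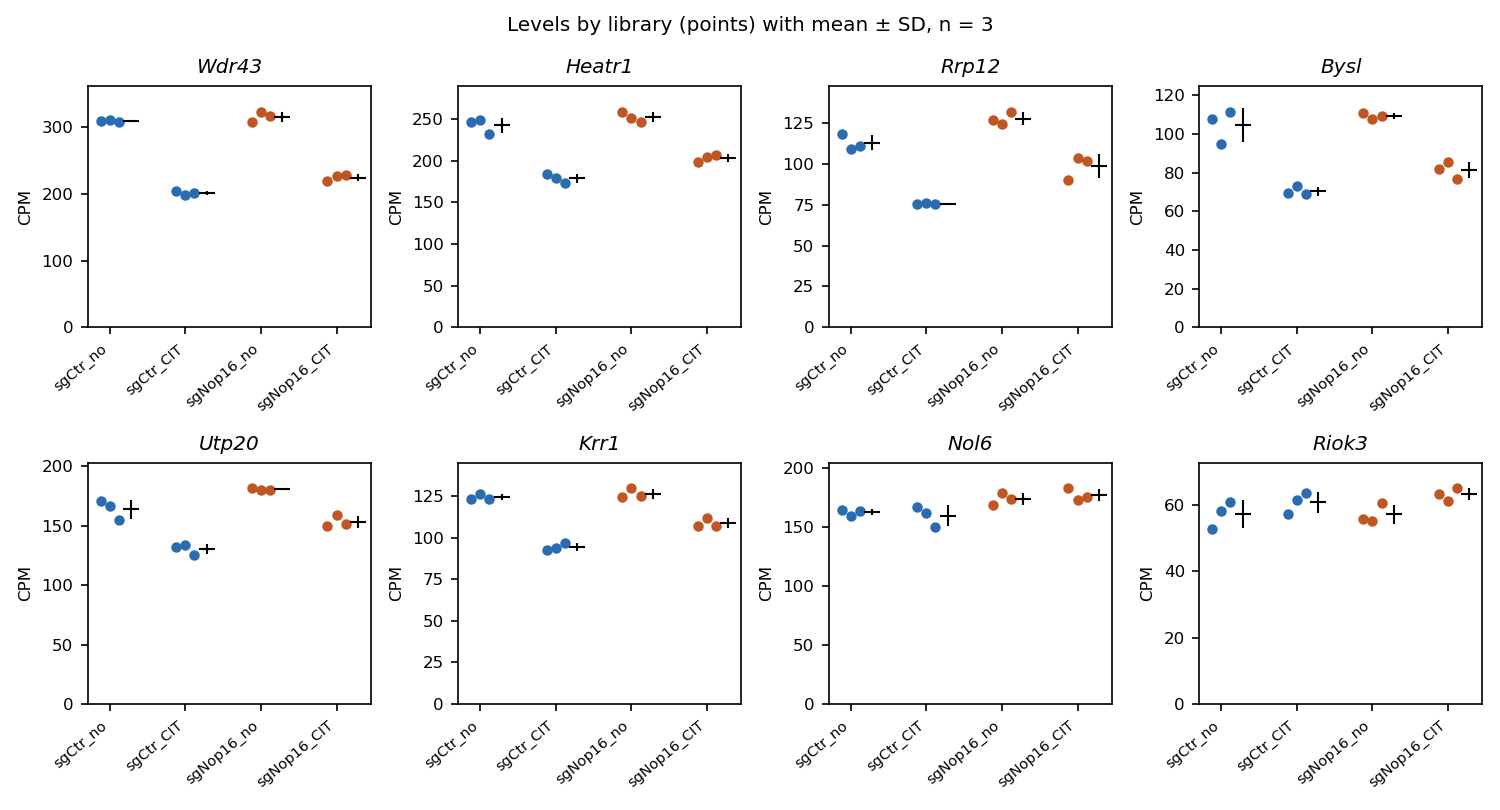
CPM (vertical axis, from 0) of 8 of the genes in each of the 12 libraries (points) with the mean ± SD of each group. Wdr43, Heatr1, Rrp12, Bysl, Utp20 and Krr1 are lower in both CIT groups, with sgNop16_CIT above sgCtr_CIT. Nol6 and Riok3 were not called after CIT with either guide, while Nol6 is higher in sgNop16_CIT (172.8 to 182.5) than in sgCtr_CIT (149.7 to 166.9).

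Without CIT, 0 of 55 genes were called higher or lower between the guides by edgeR, where 1.79% of all tested genes were higher and 1.53% lower. At an unadjusted p under 0.05 there were 12 higher and 1 lower. DESeq2 called 7 higher (Ddx52, Ngdn, Nol11, Pdcd11, Riok1, Rrp12 and Utp20) and 0 lower. The shares of all tested genes by these rules were not counted, so the edgeR shares are no measure for them. The median log2 difference was 0.04, against 0.00025 over all tested genes and -0.007 over the 7093 at the level of the list. Of the 55 estimates 37 were above 0, as were 50.1% over all tested genes. In 13 genes all sgNop16_no libraries were above all sgCtr_no libraries, against 9.44% of tested genes. Closest to the threshold was Pdcd11, with 201.8, 195.5 and 199.7 CPM in sgCtr_no against 214.1, 219.2 and 214.4 in sgNop16_no (0.12 ± 0.03, adjusted p = 0.0603). Rrp12, with the largest estimate, read 118.1, 109.3 and 111.0 CPM against 126.8, 124.3 and 131.7 (0.18 ± 0.05, adjusted p = 0.0647). Neither pair of groups overlapped, and whether such a gene was called depended on the setting.

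The last question is whether CIT lowered the genes less in sgNop16 than in sgCtr cells. The test of that difference called 0 of 55 genes higher or lower in edgeR, where 0.881% of all tested genes were called with a higher and 1.25% with a lower response in sgNop16 cells. At an unadjusted p under 0.05 there were 14 higher and 0 lower, and DESeq2 called 3 higher (Krr1, Nop9 and Wdr43) and 0 lower. Here too the shares of all tested genes by these rules were not counted. The median difference of log2 responses was 0.08, against 0.01 over all tested genes and 0.02 over the 7093 at the level of the list. Of the 55 estimates 48 were above 0, as were 51.3% over all tested genes. The smallest adjusted p was that of Krr1 (0.18 ± 0.05, adjusted p = 0.0758). Krr1 fell by 0.40 with sgCtr and by 0.22 with sgNop16. Rrp12 had the largest difference, 0.20 ± 0.07 (adjusted p = 0.171), and was called without sgNop16_CIT library 1. The estimates of Nol10 (0.0038 ± 0.07, adjusted p = 0.993) and Nob1 (0.01 ± 0.06, adjusted p = 0.963) were near 0. Estimates below 0 were those of 7 genes, Ngdn, Imp3, Riok1, Utp23, Nol11, Riok2 and Pdcd11, the lowest being Ngdn (-0.05 ± 0.07, adjusted p = 0.85) and Imp3 (-0.05 ± 0.08, adjusted p = 0.872).

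A further 23 genes of the pathway, listed beside the 55, were all tested. In sgCtr cells 19 fell after CIT (20.9% of all tested genes did) and 0 rose in edgeR, while an unadjusted p under 0.05 and DESeq2 each gave 19 and 1. The median was -0.25. In sgNop16 cells 15 fell (18.2% of all tested genes did) and 1 rose, with a median of -0.19. The gene that rose was Rrp36, a processome factor, from 19.47, 20.97 and 20.53 CPM to 24.11, 25.68 and 24.03. The 4 most abundant genes all fell with both guides. Nop56 and Nop58, core proteins of the box C/D nucleolar particles to which U3 belongs, were among them. Nop56 changed by -28.6% in sgCtr and -22.3% in sgNop16 cells, and Nop58 by -25.0% and -21.7%. Rsl1d1, a nucleolar protein, changed by -30.1% and -25.9%. Xpo1, the exportin that carries pre-40S particles and many proteins out of the nucleus, changed by -7.43% and -7.09%.

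Between the guides, 2 of the 23 were called higher with CIT, a share near that of the genes at the level of the 55 (6.89%, against 3.39% of all tested genes). Nop56 read 387.4, 386.8 and 376.6 CPM in sgCtr_CIT and 435.3, 429.9 and 445.7 in sgNop16_CIT, and Csnk2b, the regulatory subunit of casein kinase 2, read 84.11, 91.64 and 89.71 against 98.49, 104.1 and 99.82. Neither gene's groups overlapped. Fbl, the methyltransferase of box C/D particles, was called for a smaller fall in sgNop16 cells (difference of log2 responses 0.21, adjusted p = 0.0412). It fell by 28.2% with sgCtr and by 17.0% with sgNop16, and before CIT its sgNop16 libraries (210.6, 211.4 and 219.5 CPM) lay below those of sgCtr (233.6, 237.0 and 230.2).

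Some counts may hold reads of a neighbour. In the GRCm38 annotation 0 of the 55 share exon bases with a tested gene on the same strand and 20 do with one on the opposite strand. In 8 of these (Ddx49, Kri1, Nop9, Riok2, Rrp7a, Tbl3, Tsr1 and Utp23) the shared part is over 10% of the gene's exon bases. The level of the neighbour matters too. The neighbours of Nop9, Utp23 and Tbl3 averaged only 0.188, 0.523 and 0.731 CPM over the libraries. Those of Rrp7a, Kri1, Ddx49, Tsr1 and Riok2 averaged 32.8, 32.3, 17.3, 11.3 and 4.57 CPM. Kri1 shares 33.6% with Atg4d and itself averaged 52.5 CPM, and Ddx49 shares 29.8% with Homer3 and averaged 64.3 CPM. Below 10%, Bysl shares 9.37% with Ccnd3, which averaged 109 CPM against 91.5 for Bysl. Emg1 shares 7.21% with Lpcat3 (77.3 CPM) and Krr1 5.91% with Glipr1 (57.7 CPM). The library kit keeps strand, but the strand setting of the counting is not given in these sources. Values of genes that share bases with an expressed neighbour are therefore less certain.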

How the data were processed

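RNA of 12 libraries of CH12F3-2A cells was sequenced, 3 in each of 4 groups. The authors deposited 1 table of estimated counts per Ensembl gene, in whole numbers and with no scaling between libraries. The submitters' processing notes list HISAT2 2.2.1, StringTie 2.2.1 and the build GRCm39 but give them no role. The sources used here give neither the annotation release nor the strand setting. Low values were in excess at 4, so 1 fragment may be worth about 4 counts, which was tried as an alternative.

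Symbols came from an annotation of another build, GRCm38, for 51948 of 56941 genes, and Utp25 was matched by an older symbol. edgeR 4.0.16 (R 4.3.3) tested 16794 genes kept by filterByExpr, with TMM factors (0.985 to 1.013), 1 model of all 12 libraries with a mean per group, and the quasi-likelihood F test. The common dispersion was 0.015. P-values were adjusted by Benjamini-Hochberg across the tested genes. Called, rose and fell mean an adjusted p under 0.05. Shares of all tested genes called are given for these edgeR calls, and not for an unadjusted p, DESeq2 or the other settings. CPM are counts per 1000000 counts of tested genes, corrected by the TMM factor, with the SD over 3 libraries. Pearson's r between libraries was 0.977 to 0.980 within groups and 0.954 to 0.980 between them. The 5 contrasts were the CIT response with each guide, the guide difference in each state, and the difference of the responses. The procedure was tested on simulated data.

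The 55 members, the 6 roles, the 23 other pathway genes and the 5 marker lists, 1 of which is not reported here, were chosen with earlier results of these data known. Full values are given for up to 6 called members per contrast and direction, ranked by size of change, for those not called after CIT, and for the highest per kb in each role. Outside the list these are Nop16, Myc and the called or 4 most abundant other pathway genes. Any other gene given with values was picked with its values known. The alternatives tried were RLE factors, library totals, no filter, at least 5 CPM in 3 libraries, a replicate block, a fit of only the groups compared, counts divided by 4, DESeq2 1.42.0, leaving out each library, and a robust dispersion prior, the last of these added after seeing the data.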

Additional observations from a re-analysis of the deposited data

How the results depend on the processing

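Of 55 genes, 47 were lower after CIT in sgCtr cells in every setting tried. In sgNop16 cells 41 to 46 of 55 were called. The counts in this section have no share of all tested genes beside them, so changes between settings are not shown to be particular to the list. The guide difference with CIT had 19 calls. It had 12 with no low-count filter, 12 with only the groups compared and 7 to 12 when 1 library was left out. Those fits hold more genes or fewer libraries, and the part of this in the drop was not tested. There were 15 calls with library totals and 19 with RLE factors. The filter of 5 CPM, counts divided by 4 and the robust prior gave 20 each, and DESeq2 gave 24. Without CIT, where 0 were called, there were 4 calls with library totals, 5 with the filter of 5 CPM, 4 with counts divided by 4, 4 with the robust prior, 7 with DESeq2, 1 with only the groups compared and 0 to 1 with 1 library left out. The difference of responses, with 0 calls, had 3 with DESeq2 and 0 to 1 with 1 library left out, and the cause was not tested. Its fit with only the groups compared is the same as the one reported. Numbers of replicates shared between groups did not pair the libraries: same-numbered libraries correlated at -0.045 to 0.023 after removing group means, 0 of 18 pairs were above 0.1, and 2 of 12 libraries correlated best with their own number. With the replicate number as a block the calls were 47, 43, 0, 14 and 0 for the CIT responses in sgCtr and sgNop16 cells, the guide differences without and with CIT, and the difference of responses. Signs turned for 2 genes near 0, with the cause not tested. For Nol6 the sgCtr response was 0.005241 with library totals and -0.06507 to 0.01185 with 1 library left out (above 0 without sgCtr_CIT library 3). Its sgNop16 response was -0.008383 to 0.04218 with 1 library left out, with -0.008383 without sgNop16_no library 1 and -0.002241 without sgNop16_CIT library 1. For Ddx52 the sgCtr response was 0.01604 with library totals and 0.00329 with the filter of 5 CPM. Its sgNop16 response was 0.006806 and 0.007166 with these and -0.06429 to 0.01702 with 1 library left out, with 0.01702 without sgNop16_no library 3 and 0.01295 without sgNop16_CIT library 1. Errors on the log2 scale were 0.03 to 0.09, and 0.04 to 0.13 for the difference of responses. With 3 libraries a group, estimates of up to 0.18 between the guides without CIT, 0.16 with CIT and 0.20 for the difference of responses did not pass.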
